A study of Mus musculus with 16 samples.

Results

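Chitinase-like proteins and the other gene products of alternatively activated macrophages were examined in the ageing mouse bladder, over 8 genes: Chil3, Chil4, Chil1, Retnla, Il4ra, Clec10a, Trem2 and Gpnmb. They were chosen by their symbols, through the accession that each probe carries, from a list proposed with the age changes of both sexes in view, so their age changes are given as a description; where the calls of the fit on them are counted below, nothing is read from the counts. The 8 genes had 9 of the 55681 probes of the array, and 7 of them were among the 26781 genes tested. Chil4 was too dim to be tested.

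Macrophages that meet the cytokines IL-4 or IL-13 take on a state called alternative activation, in which the receptor chain Il4ra signals through the transcription factor Stat6 and genes such as Chil3 and Retnla are switched on. Chil3, Chil4 and Chil1 encode secreted proteins built like chitinases but without their enzyme activity, and Chil3 is also made by neutrophils. Macrophages reside in the connective tissue and the muscle of the bladder wall.

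The samples were bladders of C57BL/6 mice with no treatment. Mature mice (MAT) were 12 months old and aged mice (AGED) 27 to 30 months old, and each age had 4 males and 4 females, with 1 array per mouse. All values are log2 processed signals less the 75th percentile of their array, called log2 scaled signals here, and 0 is therefore the brightness of a probe at that percentile. Different probes differ in how brightly they bind, so a level is compared only between samples and never between genes. Males and females lay on separate slides, and MAT and AGED arrays in separate rows of each slide, so slide and sex, and row and age, cannot be told apart. The number of arrays limits the precision.

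The 75th percentile of the log2 processed signal lay between 9.18 and 10.82, and 52.3% to 68.2% of probes were well above background, meaning that the scanner software called the spot clearly brighter than its surroundings. The lowest value of both belonged to AGED male replicate 1, at a percentile of 9.18 against 9.90 to 10.0 in the other AGED males and with 52.3% of probes well above background against 58.7% to 61.2%. Male values that moved much when this array was left out are therefore also given without it. The bladder wall was represented in every sample: all 6 urothelium markers, among them Upk1a, and all 5 smooth muscle markers, among them Cnn1, were well above background on all 16 arrays, and so were the 10 macrophage markers tested, of which Csf1r had the brightest probe.

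Chil3 was the member with the widest range. Its log2 scaled signals were -2.82, -2.72, -2.60 and -2.77 in MAT males and 4.07, 2.40, 2.70 and 2.66 in AGED males. Every AGED male lay far above every MAT male, and replicate 1 was the highest of the AGED males. In processed signal this was a brightness of 142 to 169 in MAT males and of 5424 to 9719 in AGED males, with the probe well above background on all 16 arrays. The arrays labelled AGED carried the higher Chil3 signal in both sexes, which is opposite to the direction given by the study. The age change of Chil3 in males was 5.68 ± 0.37 (SE, n = 4 per group) on the log2 scale, or 51.4-fold, and 5.31 without AGED male replicate 1.

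In females the log2 scaled signals of Chil3 were -1.57, -1.18, -1.40 and -1.52 in MAT mice and 0.45, 1.23, 0.52 and 2.26 in AGED mice. The age groups did not overlap in females either, and AGED female replicate 4 was the highest of its group. The age change was 2.53 ± 0.37 (SE, n = 4 per group), or 5.79-fold. The 4 group means ordered MAT male (-2.73 ± 0.09, SD), MAT female (-1.42 ± 0.17), AGED female (1.12 ± 0.84) and AGED male (2.96 ± 0.75), and no neighbours in that order overlapped. Males were thus below females at the mature age and above them at the advanced age.

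The sexes were compared at each age with limma, adjusting over all 26781 genes; these arrays also entered the age changes that the list was chosen on, so the p-values of its members between the sexes are no independent test. In AGED mice Chil3 was higher in males by 1.84 ± 0.37 (SE), 3.58-fold, at an adjusted p of 0.0092, with all 4 males above all 4 females. Without AGED male replicate 1 the difference was 1.47. In MAT mice the difference was -1.31 ± 0.37 (SE) at an adjusted p of 0.138, which did not pass. The fit shares 1 estimate of the spread over the 4 groups. This SE therefore also holds the wider spread of AGED males and females (SD 0.75 and 0.84, against 0.09 and 0.17 in MAT). All 4 MAT males lay below all 4 MAT females. The share of all genes with no overlap between the sexes was not counted at either age. The MAT difference was called with array weights (-1.30 ± 0.23, SE), and over the alternatives it ranged from -1.36 to -0.82. The male age change exceeded the female one by 3.15 ± 0.53 (SE), and by 2.78 without AGED male replicate 1.

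**Figure D1:**
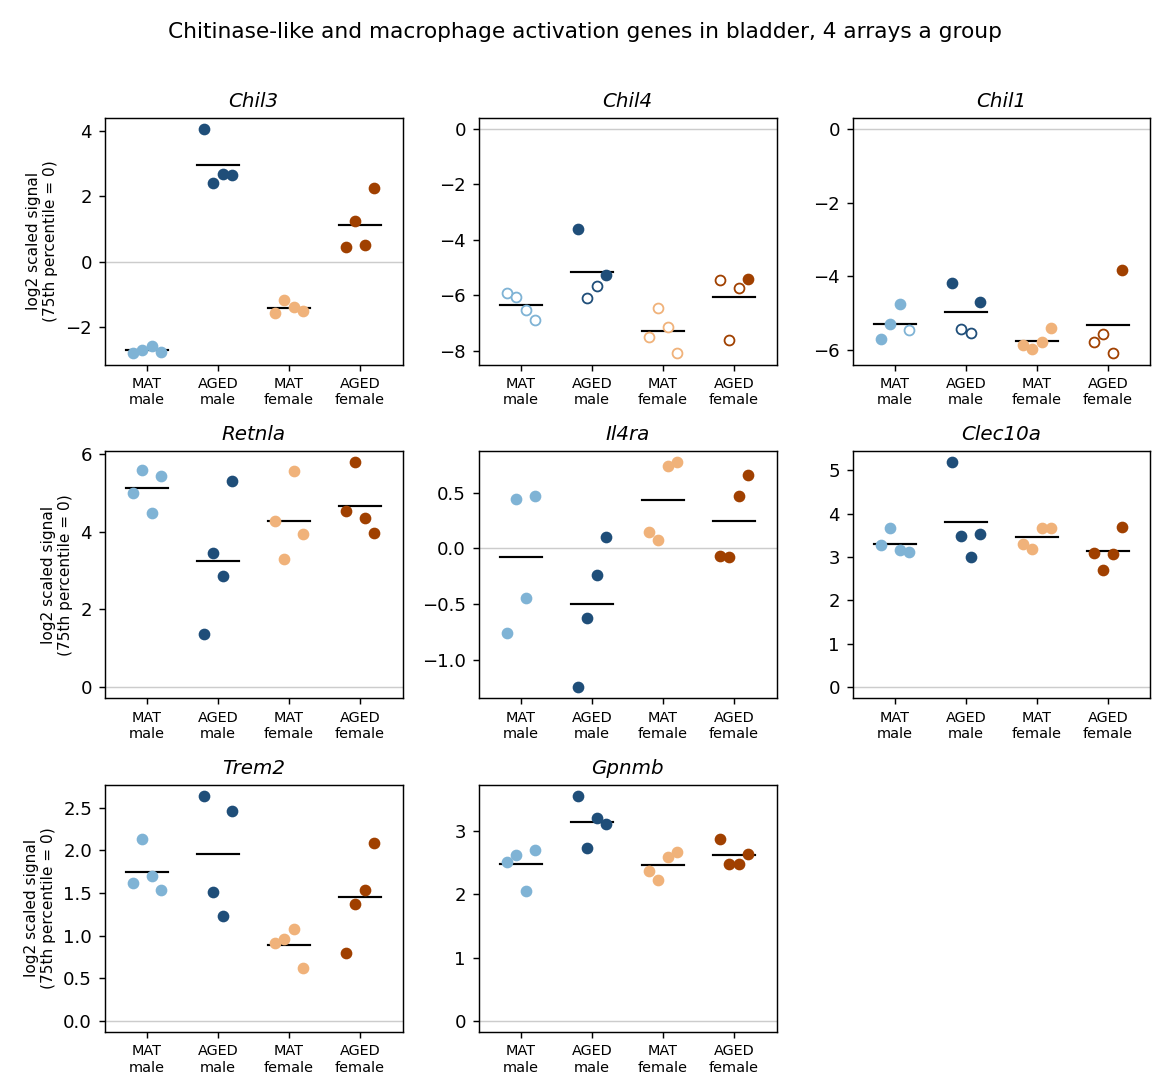
Log2 scaled signal of the 8 genes in each of the 16 arrays, by group, with 0 at the 75th percentile of each array. Filled circles are arrays on which the probe was well above background, open circles those on which it was not, black bars are means of 4 arrays, and replicates run from left to right; the vertical axes differ between genes. Chil3 lies between 2.40 and 4.07 in AGED males and between -2.82 and -2.60 in MAT males, while Retnla of AGED males spreads from 1.37 to 5.31.

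Chil4 is the gene next to Chil3 on chromosome 3, with 0 genes between them, and encodes a closely related protein. Its probe was well above background on 3 arrays: AGED male replicates 1 and 4 and AGED female replicate 4. It passed on 0 of 4 arrays in MAT males and on 0 of 4 in MAT females. The log2 scaled signals were -5.92, -6.06, -6.53 and -6.90 in MAT males and -3.61, -6.10, -5.67 and -5.28 in AGED males, so that replicate 1 alone stood well clear of the MAT males. In females they were -7.49, -6.44, -7.15 and -8.09 in MAT mice and -5.46, -7.59, -5.75 and -5.42 in AGED mice, with AGED female replicate 2 among the MAT values. Whether either probe also binds the transcript of the other gene was not tested.

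Chil1, which encodes the chitinase-like protein made by many cell types, was near the background. Its probe was well above background on 3 of 4 arrays in MAT males, 2 of 4 in AGED males, 4 of 4 in MAT females and 1 of 4 in AGED females. The log2 scaled signals ran from -6.09 to -3.83 over the 16 arrays, and the age groups overlapped in both sexes. The age change of Chil1 was 0.34 ± 0.42 (SE) in males, 0.08 without AGED male replicate 1, and 0.44 ± 0.42 in females, where Chil1 was at -0.05 without AGED female replicate 4. Its highest values, -3.83 and -4.18, came from AGED female replicate 4 and AGED male replicate 1, the arrays on which Chil3 was also highest in its group. These 2 arrays had the lowest 75th percentiles of their groups, 9.83 and 9.18. In processed signal Chil1 was 32.1 on AGED male replicate 1, below MAT male replicate 3 (38.0) and AGED male replicate 4 (36.8). AGED female replicate 4 was highest in processed signal too, at 63.9.

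Retnla encodes a secreted resistin-like protein that macrophages release on IL-4 signalling. It was well above background on all 16 arrays. The log2 scaled signals were 5.01, 5.59, 4.50 and 5.43 in MAT males and 1.37, 3.45, 2.87 and 5.31 in AGED males. In 3 of the 4 AGED males Retnla lay below every MAT male, and the remaining mouse, replicate 4, lay within their range. The age change was -1.88 ± 0.67 (SE, n = 4 per group) in males, -1.26 without AGED male replicate 1, whose value was the lowest, and -2.57 without AGED male replicate 4.

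Among females Retnla was 4.29, 3.30, 5.56 and 3.95 in MAT mice and 4.55, 5.79, 4.36 and 3.97 in AGED mice, with wide overlap. The age change of Retnla was 0.39 ± 0.67 (SE), and 0.02 to 0.82 on leaving out each array. Between the sexes, Retnla in males differed from that in females by 0.85 ± 0.67 in MAT mice and by -1.42 ± 0.67 in AGED mice, at adjusted p of 0.609 and 0.198 (limma); the AGED difference of Retnla was -0.79 without AGED male replicate 1, and it was called without AGED male replicate 4 (-2.10) and with normexp (-1.84). Among AGED males the array with the highest Chil3 had the lowest Retnla, while replicate 4 had Retnla within the MAT male range.

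The receptor chain Il4ra had 2 probes. The brighter one, which was used, was at -0.76 to 0.47 in MAT males, -1.24 to 0.10 in AGED males, 0.08 to 0.77 in MAT females and -0.08 to 0.66 in AGED females. All of these ranges overlapped within each sex, and the age change of Il4ra was -0.42 ± 0.33 (SE) in males, -0.18 without AGED male replicate 1, and -0.19 ± 0.33 in females. The other probe had means of -4.13 in MAT males, -3.76 in AGED males, -4.34 in MAT females and -3.87 in AGED females, so the probes differed in the sign of the age change, each within the spread of its groups.

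The remaining members mark macrophages. Clec10a, a lectin of macrophages and dendritic cells that binds galactose-type sugars, was at 3.11 to 3.67 in MAT males and 3.0 to 5.18 in AGED males. Its highest value was that of AGED male replicate 1, and the male age change of 0.49 ± 0.36 (SE) was 0.03 without this array. In females Clec10a was at 3.18 to 3.68 in MAT mice and 2.70 to 3.70 in AGED mice, a change of -0.32 ± 0.36.

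Trem2, a lipid-sensing receptor of macrophages, was at 1.53 to 2.13 in MAT males and 1.23 to 2.64 in AGED males, with AGED male replicates 1 and 4 above and the other AGED males below the MAT range. Its age change was 0.22 ± 0.31 (SE) in males, -0.01 without AGED male replicate 1, and 0.55 ± 0.31 in females. Among MAT mice all 4 males lay above all 4 females, at 0.62 to 1.08 in the females, but the difference of 0.85 ± 0.31 did not pass limma at an adjusted p of 0.236. How many of all genes were apart in this way between the sexes was not counted.

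Gpnmb, a membrane glycoprotein of macrophages with lipid-filled lysosomes, was at 2.52, 2.63, 2.05 and 2.71 in MAT males and 3.56, 2.73, 3.21 and 3.11 in AGED males. The groups were just apart, by the gap between 2.71 and 2.73. The age change was 0.68 ± 0.19 (SE) in males, 0.54 without AGED male replicate 1, and 0.15 ± 0.19 in females, where the groups overlapped. AGED males exceeded AGED females by 0.53 ± 0.19 at an adjusted p of 0.0891 (limma).

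A gene was called when its adjusted p was under 0.05 and its change at least 2-fold. In males 1 of the 7 members tested, Chil3, was called higher and 0 lower, beside 0.276% and 0.575% of all genes tested. In females 1 of 7, Chil3, was called higher and 0 lower, beside 0.179% and 0.0112%. All AGED arrays lay above all MAT arrays for 2 of 7 members in males, Chil3 and Gpnmb, and for 1 of 7 in females, Chil3, beside 3.91% and 5.04% of all genes; nothing is read from these counts, since the list was chosen with these age changes in view. Between the sexes 0 of 7 members were called in MAT mice and 1 of 7, Chil3, in AGED mice, beside 0.164% and 3.11% of all genes. For the difference of the age changes, called without a fold limit, the count was 1 of 7, again Chil3, beside 0.149%.

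Chil3 in females was not called without MAT female replicate 1 (2.48), MAT female replicate 2 (2.61), MAT female replicate 4 (2.50) or AGED female replicate 2 (2.49), with the change itself little moved. The call was also lost with a replicate block (limma, adjusted p 0.0808) and with the methods' t-test after adjustment (0.137), at a change of 2.53. These calls too are a description, as the list was chosen with this change in view.

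The other genes of the pathway were followed through 5 lists of 51 genes in all, 43 of them tested, and 0 were called for age in either sex. Over the whole array limma called 74 genes higher and 154 lower in males (0.276% and 0.575%) and 48 higher and 3 lower in females (0.179% and 0.0112%). The median age change of the 43 was 0.12 in males and 0.05 in females, against medians over all genes of 0.0014 and -0.0063, and the values ran from -0.64 to 1.38 in males and from -1.39 to 1.29 in females.

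Of the 7 other chitinases and chitinase-like genes, 5 were tested. Chil6, another gene of the family, had an age change of 0.86 ± 0.29 (SE) in males and 0.13 ± 0.29 in females, and Ovgp1, the oviduct glycoprotein, one of 0.43 ± 0.18 in males. Chid1 was at 0.28 ± 0.17 in females. Between the sexes in AGED mice 1 of the 43 was called, beside 3.11% of all genes; it was Chil6, named after its value was seen: males exceeded females by 1.44 ± 0.29 at an adjusted p of 0.0084 (limma). The transcript of the chitinase Chit1 was too dim to be tested.

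Of the 16 genes of IL-4 and IL-13 signalling, 14 were tested, with a median change of 0.15 in males and -0.04 in females. Il13ra1, a receptor chain that pairs with Il4ra, was at 0.49 ± 0.19 (SE) in males and 0.38 ± 0.19 in females, and Socs1, a feedback inhibitor, at 0.30 ± 0.17 in males; without AGED male replicate 1 the male values of Il13ra1 and Socs1 were 0.30 and 0.19. Il33, an alarm cytokine that drives IL-13 release, had the smallest p of the list: it was at 0.98 to 1.22 in MAT females and 1.88 to 2.53 in AGED females, a change of 1.17 ± 0.26 at an adjusted p of 0.0920 in limma. Il33 was called with array weights, with the females fitted alone and without AGED male replicate 4. The transcripts of Il13 and Il25 were too dim to be tested.

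Of the 16 alternative activation targets beside the members, 14 were tested, with medians of 0.07 in males and -0.02 in females. Socs2 was at 0.68 ± 0.22 (SE) and the mannose receptor Mrc1 at -0.47 ± 0.20 in males, and the chemokine Ccl24 at -0.67 ± 0.35 and the cholesterol hydroxylase Ch25h at 0.66 ± 0.39 in females. In the resistin-like family Retnlg, a relative of Retnla found in neutrophils, was at 1.38 ± 0.53 in males and 1.29 ± 0.53 in females, and Retn at 0.53 ± 1.01 (0.84 without AGED male replicate 1) and -1.39 ± 1.01. On leaving out each array Retn ranged from -0.31 to 1.43 in males and from -1.70 to -0.82 in females. Of 9 genes of arginine metabolism, 8 were tested: the arginine-forming enzyme Asl was at -0.64 ± 0.24 in males, the polyamine enzyme Odc1 at -0.48 ± 0.21 in males (-0.31 without AGED male replicate 1) and 0.37 ± 0.21 in females, and the arginine transporter Slc7a1 at 0.43 ± 0.23 in females. None of these passed limma in either sex, while with normexp Mrc1 (-1.31), Asl (-1.07) and Retnlg (1.13) were called in males.

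**Figure D2:**
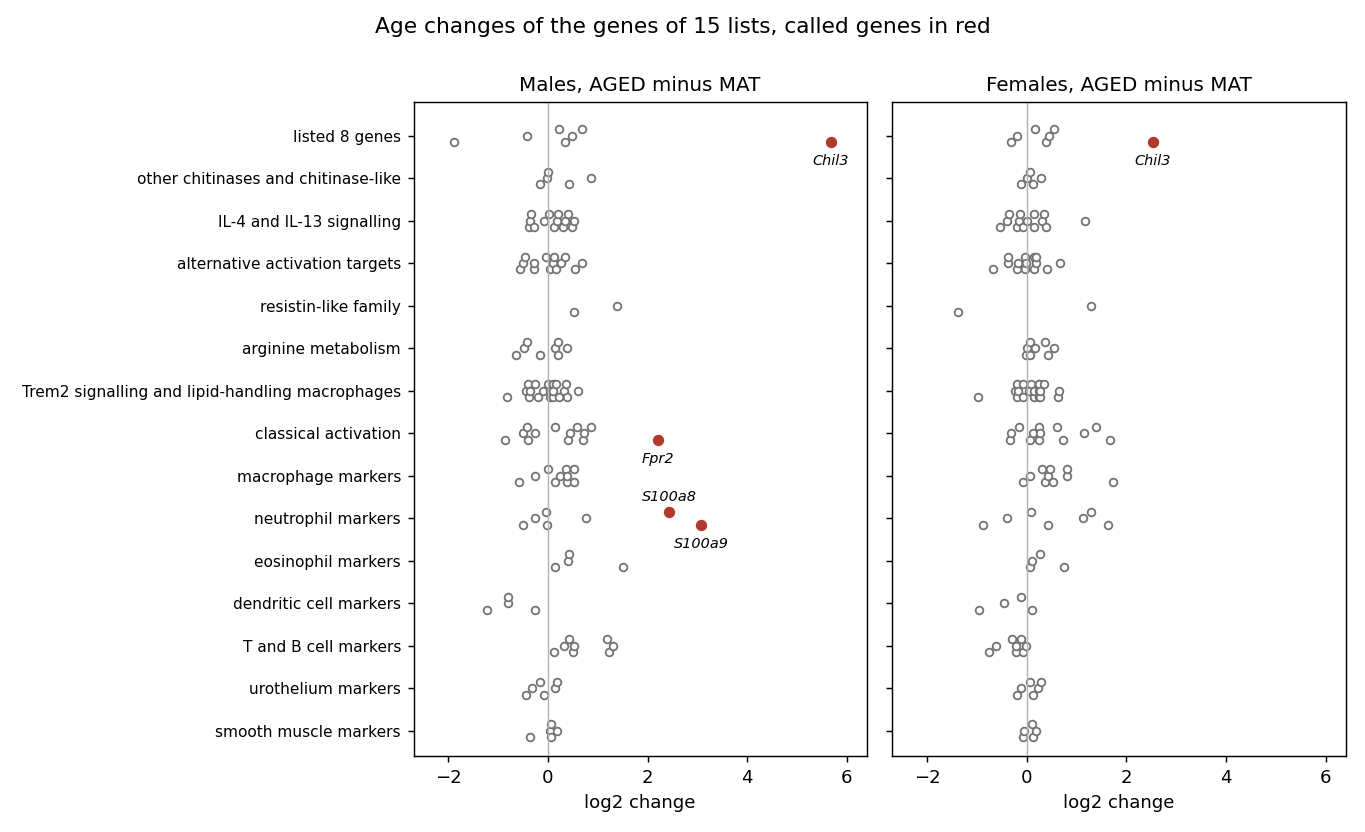
Log2 age change (AGED minus MAT) of each tested gene in males and in females, with a row for the 8 listed genes and for each of the 14 other lists; a gene can stand in several lists. Red, labelled points were called by limma and open points were not; Chil3 lies at 5.68 in males and 2.53 in females, and the called genes outside the listed genes are Fpr2, S100a8 and S100a9, in males.

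Around Trem2, 20 of 21 genes of Trem2 signalling and lipid handling were tested and 0 were called for age. Its adaptor Tyrobp was at 0.64 ± 0.22 (SE) in females, the apolipoprotein Apoe at 0.61 ± 0.21 in males (0.36 without AGED male replicate 1), the lysosomal lipase Lipa at -0.82 ± 0.20 in males and the lipoprotein lipase Lpl at -0.98 ± 0.34 in females. Lipa was called without AGED male replicate 1 (-1.02), with array weights (-1.09) and with normexp (-1.53). Between the sexes in AGED mice 2 of the 20 were called, Lipa (-1.23 ± 0.20, adjusted p 0.0030) and the integrin Itgax (-1.22 ± 0.34, adjusted p 0.0362), both lower in males, beside 3.11% of all genes; Itgax was not called with normexp or without any of AGED female replicates 2, 3 and 4 and AGED male replicates 3 and 4. Of 15 genes of classical activation, the state that interferon gamma and bacterial products bring on, 13 were tested, with medians of 0.41 in males and 0.24 in females. Fpr2, a formyl peptide receptor of neutrophils and macrophages, rose in AGED males, by 2.22 ± 0.48, 4.64-fold, at an adjusted p of 0.0305 (limma). It was the 1 gene called of the 13, beside 0.276% of all genes called higher in males. The list was chosen with earlier results of these data known, so this p is no independent test. Fpr2 in males was not called with the males fitted alone, with the methods' t-test after adjustment, without MAT male replicate 1 (2.11) or without MAT male replicate 3 (1.99). In females Fpr2 was at 1.68 ± 0.48 with an adjusted p of 0.218, and was called with array weights (1.52). Cd38 was at 0.59 ± 0.22 in males (0.34 without AGED male replicate 1), and the chemokine Cxcl10 at 1.15 ± 0.70 in females.

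In bulk bladder, fewer or more cells of a type and less or more RNA per cell cannot be told apart, so marker genes of cells that could carry the members are given beside them. Macrophage markers: 10 of 11 were tested and 0 called for age, with median changes of 0.30 in males and 0.44 in females. Their summed scaled signal, the sum of their linear signals relative to the 75th percentile, was 90.9, 106.7, 85.4 and 97.6 in MAT males and 201, 104, 99.9 and 99.6 in AGED males. Only AGED male replicate 1 stood above the MAT males among the AGED males, apart from them by a wide gap. In females the sum was 81.5, 85.2, 93.6 and 82.3 in MAT mice and 77.1, 96.2, 104 and 134 in AGED mice, highest on AGED female replicate 4. AGED male replicate 1 and AGED female replicate 4 had the lowest 75th percentiles of their groups, 9.18 and 9.83, by which signals were scaled. Over the 16 arrays 41.3% to 64.7% of the sum came from the probe of Csf1r. In males 7 of the 10 markers had a change above 0, and in females 9. The lowest in males was Adgre1 at -0.58, with means of 2.56 in MAT and 1.98 in AGED males. Its other probe had means of 0.54 and 0.58, and Mertk had means of -0.10 and -0.36. Csf1r was at 0.38 ± 0.19 (SE) and the complement gene C1qc at 0.53 ± 0.28 in males. Without AGED male replicate 1 they were at 0.18 for Csf1r and 0.17 for C1qc. In females Fcgr1 was at 1.72 ± 0.55 and C1qa at 0.80 ± 0.25. Fcgr1 was called with array weights (1.60) and without AGED male replicate 1. Their part in the Chil3 values was not tested.

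Neutrophil markers: 7 of 11 were tested, with median changes of -0.0094 in males and 0.43 in females. For age 2 were called, both higher in AGED males, beside 0.276% of all genes. The list was chosen with earlier results of these data known, so the p-values of its genes are no independent test. S100a9 and S100a8, calcium-binding proteins abundant in neutrophils, rose in AGED males, by 3.08 ± 0.56 (SE), 8.48-fold, and by 2.43 ± 0.49, 5.40-fold, at adjusted p of 0.0125 and 0.0211 (limma). S100a9 was at -2.56 to -0.61 in MAT males and at 0.22 to 2.41 in AGED males, with all 4 AGED above all 4 MAT arrays, beside 3.91% of all genes. The study gives S100a9, like Chil3, the opposite direction. S100a9 and S100a8 were not called with the males fitted alone or with the methods' t-test after adjustment, and S100a8 was not called without MAT male replicate 3 (2.19) or MAT male replicate 4 (2.33). Over the alternatives the male change of S100a8 ranged from 1.31 to 2.74. In females S100a9 was at 1.62 ± 0.56, with an adjusted p of 0.323, and the chemokine receptor Cxcr2 at 1.29 ± 0.47, with an adjusted p of 0.356. The Cxcr2 probe was well above background on 1 of 4 arrays in MAT females and 2 of 4 in AGED females. Over the alternatives the female change of Cxcr2 ranged from 0.39 to 1.52. Of the granule genes, Ngp and Mmp8 were well above background on 0 arrays, Ltf on 2, and Camp, Mpo and Elane on all 16. Camp was at -3.42 to -3.09 in MAT males and -2.84 to -1.90 in AGED males, a change of 0.77 ± 0.17 (SE) at an adjusted p of 0.0342, under the 2-fold limit; its other probe had means of -3.77 and -3.71. Mpo was at -0.51 ± 0.31 and Elane at -0.26 in males. In females 5 of the 7 tested markers had a change above 0. Mpo had means of -2.09 in MAT and -1.66 in AGED females. Elane was lower in AGED females, with means of 0.30 in MAT and -0.58 in AGED females. Camp was also lower, at -3.18 to -2.86 in MAT females and -3.58 to -3.17 in AGED females. None of these was called for age in females. Between the sexes in AGED mice 1 of the 7, Mpo, was called, lower in males by 1.58 ± 0.31 (adjusted p 0.0082), beside 3.11% of all genes, and it was not called with array weights or normexp. The summed scaled signal was 95.7, 99.9, 104 and 101 in MAT males, 93.5, 97.0, 118 and 96.7 in AGED males, 88.9, 82.8, 83.7 and 90.2 in MAT females and 95.0, 94.4, 74.1 and 108 in AGED females, but 92.7% to 98.8% of it came from the probe of Csf3r. The part of neutrophils in the Chil3 values was not tested.

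Of the other cell types, 4 of 5 eosinophil markers, 4 of 5 dendritic cell markers and 8 of 8 T and B cell markers were tested, and 0 of them were called for age in either sex. Their median age changes in males and females were 0.41 and 0.18, -0.80 and -0.29, and 0.51 and -0.21. The eosinophil granule gene Epx was well above background on 0 arrays, and the summed eosinophil signal was at most 1.0 on any array. Prg2 had the brightest eosinophil probe by the mean over the 16 arrays, but not in MAT males. It gave 9.4% to 62.8% of the sum. Prg2 was at 1.50 ± 0.77 (SE) and Ccr3 at 0.40 ± 0.28 in males, and Il5ra at 0.74 ± 0.44 and Siglecf at 0.26 ± 0.32 in females. The Ccr3 probe was well above background on 3 of 4 arrays in MAT males and 0 of 4 in AGED males, so the size of its male change is uncertain. For dendritic cells the brightest probe was that of Cd209a, and the summed signal was 1.6 to 1.9 in MAT males, 0.56 to 1.7 in AGED males, 3.0 to 3.1 in MAT females and 1.5 to 2.2 in AGED females. Clec9a was at -1.22 ± 0.36 and Flt3 at -0.80 ± 0.29 in males (-0.52 for Flt3 without AGED male replicate 1), and Cd209a at -0.96 ± 0.32 and Flt3 at -0.45 ± 0.29 in females; Clec9a was called without AGED male replicate 2, at -1.50. Between the sexes in AGED mice Clec9a was called, lower in males by 1.37 ± 0.36 (adjusted p 0.0284), but not with array weights or normexp, nor without any of AGED female replicates 2, 3 and 4 and AGED male replicate 3.

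The summed T and B cell signal was 3.2 to 6.3 in MAT males and 3.4 to 12.7 in AGED males. In females the sum was 6.2 to 12.7 in MAT mice and 3.2 to 11.1 in AGED mice. Cd3e had the brightest probe of the list by the mean over the 16 arrays, but not by the mean of any group. It gave 12.1% to 29.8% of the sum. Cd3d was at 1.19 ± 0.52 (SE) and Cd8a at 1.23 ± 0.70 in males, or 0.56 for Cd3d and 0.42 for Cd8a without AGED male replicate 1, and Cd4 at -0.22 ± 0.19 and Cd8a at -0.63 ± 0.70 in females. Among the cells of the wall itself, 0 of 6 urothelium and 0 of 5 smooth muscle markers were called for age, with median changes of -0.12 and 0.06 in males and 0.10 and 0.10 in females. Their summed signals ran from 442 to 679 and from 619 to 1124 over the 16 arrays. Upk2 was at -0.45 ± 0.18, Krt20 at -0.32 ± 0.18, the filament gene Des at -0.35 ± 0.17 and Tagln at 0.19 ± 0.19 (0.04 without AGED male replicate 1) in males, and Upk1b at 0.28 ± 0.17, Krt20 at 0.22 ± 0.18, Cnn1 at 0.18 ± 0.21 and Tagln at 0.12 ± 0.19 in females.

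The genes whose log2 scaled signals over the 16 arrays were most like those of Chil3, by Pearson correlation among 15754 genes with a symbol, were Ncln (r = 0.92), Cxcl13 (0.91), Afg3l1 (0.90), Fpr2 (0.88) and Reg3g (0.88). These arrays share their age groups and slides, so much of each correlation is the difference between groups; on deviations from the group means the values were 0.18, 0.57, 0.30, 0.76 and 0.79. Cxcl13, a chemokine that draws B cells, had an age change of 4.29 in males and 0.79 in females, and Reg3g, an antibacterial lectin, one of 2.11 and 0.89.

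Among the members, Chil3 correlated with Gpnmb at 0.71 over the 16 arrays, at 0.60 without AGED male replicate 1 and at 0.26 within groups. Chil1, Clec10a and Trem2 correlated with Chil3 at 0.45, 0.35 and 0.40 over the 16 arrays, at 0.30, -0.09 and 0.21 without AGED male replicate 1, and at 0.83, 0.69 and 0.69 within groups. Every value within groups is over all 16 arrays, with AGED male replicate 1 included. The log2 scaled signals of Chil3, Chil1, Clec10a and Trem2 were each highest of their group on AGED male replicate 1 and on AGED female replicate 4. Values within groups without these arrays were not computed. Retnla and Il4ra correlated with Chil3 at -0.56 and -0.35 over the 16 arrays, at -0.37 and -0.10 without AGED male replicate 1, and at -0.47 and -0.16 within groups.

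Promoter sequences of 7 of the 8 genes were taken from RefSeq (build GRCm38.p6); Clec10a was not matched. Chil3 and Chil4 are shown because they are neighbours of like sequence. The stretch shown ends at the base before the annotated start of Chil3, and at 29 bases before the annotated start of Chil4. It lies at chr3:106167565-106167786 for Chil3 and chr3:106219508-106219729 for Chil4, both on the minus strand, and capitals mark the bases that differ or have no partner in the alignment.
Chil3: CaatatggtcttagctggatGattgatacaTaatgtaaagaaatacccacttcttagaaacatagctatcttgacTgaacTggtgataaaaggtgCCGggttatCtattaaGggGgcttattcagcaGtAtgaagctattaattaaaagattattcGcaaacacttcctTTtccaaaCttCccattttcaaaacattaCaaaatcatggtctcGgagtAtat
Chil4: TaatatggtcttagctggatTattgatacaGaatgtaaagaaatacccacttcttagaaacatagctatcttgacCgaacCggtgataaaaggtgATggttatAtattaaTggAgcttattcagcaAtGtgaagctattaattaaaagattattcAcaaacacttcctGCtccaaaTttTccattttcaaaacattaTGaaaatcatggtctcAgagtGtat
Over 223 aligned positions the pair shared 201 bases, or 90.1%, with 20 differing bases and 2 gaps.

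The 250 bases before each annotated start were searched on both strands for the letters that Stat6, C/EBP and PU.1 factors are known to bind and for the TATA box. The Stat6 letters TTCNNNNGAA were in 1 of the 7 promoters, that of Retnla, and in 5.85% of 32851 promoters of that length. The C/EBP letters (TTGCNNAA or TTNNGCAA) were in 2 of 7, Chil4 and Retnla, beside 9.56%, and the PU.1 letters (GAGGAA or TTCCTC) in 2 of 7, Retnla and Trem2, beside 23.3%. The TATA letters (TATAAA or TTTATA) were in 2 of 7, Chil4 and Retnla, beside 12.4%. A match is only a run of letters, and no match says only that these letters are not in this window.

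The Retnla promoter, at chr16:48842359-48842608 on the plus strand, is shown because it held a match of every kind. Capitals mark, in order, the PU.1, Stat6, C/EBP and TATA matches, none of which overlap.
Retnla: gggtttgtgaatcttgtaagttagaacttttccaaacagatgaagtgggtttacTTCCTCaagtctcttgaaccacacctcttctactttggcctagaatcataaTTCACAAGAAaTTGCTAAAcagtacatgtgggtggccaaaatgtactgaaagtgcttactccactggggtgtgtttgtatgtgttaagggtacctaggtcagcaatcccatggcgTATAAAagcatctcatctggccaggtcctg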

How the data were processed

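Total RNA of 16 bladders was labelled with Cy3 and hybridised to 1-colour Agilent SurePrint G3 arrays, 1 per mouse, by the authors. Feature Extraction (10.7.3.1 in the file headers, 9.1 in the submitters' processing notes) read each spot, and the intensity used here is its deposited processed signal, corrected within the array for background and spatial trend; raw intensities, local background and spot flags were deposited too. They also deposited a table of log2 values centred per probe, which followed the scanner values of each array (lowest r 0.99987), in the direction of the labels.

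Spots flagged as outliers and control spots were left out, spots of a probe averaged, and log2 processed signals reduced by the 75th percentile of each array. Probes were named through the RefSeq table of GRCm38.p6 (26582 of 55681). Probes well above background on at least 4 of 16 arrays were kept, and a gene was read from its kept probe with the highest mean. Group means were fitted in 1 model over the 16 arrays with limma 3.58.1 in R 4.3.3, after a run on simulated data, and p-values were adjusted by Benjamini-Hochberg over all genes tested; tests are two-sided. SE is the fit's standard error. The threshold for a call was 0.05 on the adjusted p together with a 2-fold change.

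The members and lists were chosen with earlier results of these data known, and 2 genes of them are not reported here. Genes named from the 14 lists were those called for age in either sex and the 2 with the smallest p in each sex, with the brightest marker of each cell type; for Chil3, the 5 genes with the highest correlation. Itgax, Mpo, Camp, Elane, Ltf, Adgre1 and Mertk, and the calls of list genes between the sexes in AGED mice, were added after their values were seen. Promoter stretches were aligned with Biopython 1.88. Alternatives were other scalings, normexp background correction, the authors' table, other filters, a floor, the mean of probes, each sex alone, a block, array weights, the methods' t-test and leaving out each array.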

Additional observations from a re-analysis of the deposited data

Results flagged for a closer look

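Chil3 differed between the sexes in its age change: the male change exceeded the female one by 3.15 ± 0.53 (SE) on the log2 scale. The list was chosen on both age changes, so the call of this difference in the fit over all genes is no test of it and is given as a description. Over the alternatives the difference ranged from 2.78 to 3.53, and it was not called when any of 10 arrays was left out and with no filter on dim probes.

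Among 76 groups of 4 arrays, 5 held an array far from the others, where chance gives about 1 in 20. The 75th percentile of AGED male replicate 1 was 9.18, with the nearest of its group at 9.90. The same array had the summed macrophage marker signal of 201, with the nearest at 104. The summed neutrophil marker signal of AGED male replicate 3 was 118, with the nearest at 97.0. Chil4 in AGED female replicate 2 was at -7.59, with the nearest at -5.75. The median processed signal of MAT female replicate 3 was 82.0, with the nearest at 85.9.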

How the results depend on the processing

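The called age changes of Chil3 kept their sign under each alternative, and Chil3 ranged from 5.31 to 5.87 in males and 2.15 to 2.75 in females. With normexp the age change in males was -0.24 for Trem2, against 0.22; Chil1 and Il4ra in females also crossed zero under an alternative. On leaving out each array the age change in females ranged from -0.33 to -0.08 for Il4ra, -0.51 to -0.17 for Clec10a, 0.34 to 0.77 for Trem2 and 0.07 to 0.22 for Gpnmb. Counts of called genes moved much more, and where no cause is named the cause was not tested. With each sex fitted alone, 11 genes were called for age in males, against 228, and 99 in females, against 51. Without a filter on dim probes, with more genes tested, the counts were 552 in males (396 higher and 156 lower, against 74 and 154), 18 in females, 1362 between the sexes in AGED mice (907 and 455, against 331 and 503) and 7 for the difference of the age changes. With normexp 742 genes were called in males, 63 higher and 679 lower against 74 and 154, and 486 for the difference, with 2 members in males, Retnla being lower. Between the sexes in AGED mice normexp called 202 genes higher and 926 lower, and quantile normalization 242 and 589, against 331 and 503. Array weights called 198 genes in females, 612 between the sexes in MAT mice and 261 for the difference; a floor called 80 in MAT mice, and the mean of a gene's probes 25 for the difference. The methods' t-test called 496 genes in males and 394 in females unadjusted, and 0 and 1 after Benjamini-Hochberg adjustment, with 0 members in males and 0 in females.

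The replicate numbers were not paired by the labels: arrays with the same number had correlated deviations of -0.15 to 0.16, and 7 of 48 comparisons were best with their own number. With a replicate block 3 genes were called in females and 12 for the difference, and 0 members in females; the Chil3 difference (adjusted p 0.0979), Fpr2 in males (0.0668) and Itgax between the sexes in AGED mice (0.0635) were then not called. Leaving out each array in turn gave 123 to 377 genes in males, 1 to 120 in females, 17 to 116 between the sexes in MAT mice, 612 to 1254 in AGED mice and 6 to 269 for the difference, with 1 to 2 members in males and 0 to 1 in females; AGED male replicate 1 gave the highest of these in females, in both sex comparisons and for the difference. Leaving out each array also gave -0.11 to 0.34 for Chil6 in females and -0.31 to 1.43 for Retn in males. In females it gave -0.027 to 0.31 for Tagln, 0.033 to 0.37 for Cnn1, -0.89 to -0.35 for Ccl24 and 0.38 to 0.88 for Ch25h. For Cd4 and Siglecf in females it gave -0.27 to -0.09 and 0.12 to 0.36. Tagln in males was -0.058 with quantile normalization. Among the values of single genes other than the members' age changes and their difference, 22 passed the threshold under an alternative only and 26, of Fpr2, S100a8 and S100a9 in males and of Clec9a, Itgax and Mpo between the sexes in AGED mice, no longer passed it, all in the same direction. The former were Retnla between the sexes in AGED mice and Asl, Lipa, Mrc1 and Retnlg in males with normexp; Chil3 between the sexes in MAT mice, Lipa in males and Fcgr1, Fpr2 and Il33 in females with array weights; Il33 with the females alone; Clec9a in males and Cxcr2, Fcgr1, Fpr2, Il33 and S100a9 in females with the unadjusted t-test; and Retnla between the sexes, Clec9a, Fcgr1, Il33 and Lipa without an array. Chil3 was also not called in males with the methods' t-test after adjustment, and Retnla in males was called with normexp and without AGED male replicate 4. As the members were chosen with these age changes in view, these calls are a description and no test. Signals near the background limit Chil4 and Chil1, and also Cxcr2 and Ccr3.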
